A study of Mus musculus with 24 samples.

Results

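Transcripts of 37 genes that encode scaffolds, signalling enzymes, receptor partners and adhesion proteins of the postsynaptic side of the synapse were followed in the visual cortex of 24 mice. The genes were chosen by symbol from the 55414 genes counted, with earlier results of these data known, and all 37 passed the filter on low counts, as did 14464 genes in all. The animals were C57BL/6J males, 8 to 10 weeks old, kept in a reversed light cycle and studied during its dark phase. They carried no transgene, and every animal was injected with saline (PBS) or with psilocybin at 5 mg/kg, a tryptamine whose active product binds serotonin receptors. There were 6 mice in each of 4 groups. The dark group received PBS and stayed in the dark, the light group received PBS and was moved into light, the psilocybin-dark group received psilocybin in the dark, and the psilocybin-light group received psilocybin and was moved into light. The cortex was removed 2.5 h later, and poly-A RNA of each mouse was sequenced as 1 library. The comparisons ask how these transcripts differ after light, after psilocybin and after both.

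The sources name the groups in opposite ways. The group names used here follow the headings of the study's supplementary count table, in which mice 1 to 6 are dark, 7 to 12 psilocybin-dark, 13 to 18 light and 19 to 24 psilocybin-light. The sample labels give the same drug but the opposite light exposure for all 24 libraries. Both divide the mice into the same 4 groups, so each comparison is between the same mice under either reading. Under the labels the group called dark here is PBS in light. Light against dark, psilocybin-light against psilocybin-dark and the interaction then change their sign. Psilocybin-dark against dark becomes the change with psilocybin in light, and psilocybin-light against light becomes the change with psilocybin in the dark. Psilocybin-light against dark, called the change after both below, becomes psilocybin in the dark against PBS in light. Psilocybin-dark against light becomes psilocybin in light against PBS in the dark, which is then the joint change.

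At an excitatory synapse, glutamate receptors are held opposite the release site by a dense layer of proteins called the postsynaptic density. PSD-95 and its relatives bind receptors, SAPAP proteins join them to Shank and Homer, and CaMKII, the most abundant enzyme there, is switched on by calcium and calmodulin. Neuroligins and LRRTM proteins reach across the cleft to neurexins, and regulators of small GTPases shape the actin of the spine, the protrusion that carries the synapse.

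Promoter sequences of 3 members are given because these members carry the largest rise, the largest fall that was called whichever mouse was left out, and the only match found to the motif of EGR, a transcription factor family that includes the light-induced factor Egr1. Each is the 250 bases before the start of transcription in RefSeq's table for GRCm38.p6, written 5′ to 3′ along the gene. The bases just after the start were found in an annotated transcript of the gene for Nrgn and Camk2d but not for Shank3. Nrgn lies on the minus strand at chr9:37552746-37552995, Camk2d on the plus strand at chr3:126596701-126596950 and Shank3 on the plus strand at chr15:89499358-89499607. Capitals mark the match to the EGR motif, which reads GCGTGGGCG on the opposite strand and begins 146 bases before the start.
Nrgn: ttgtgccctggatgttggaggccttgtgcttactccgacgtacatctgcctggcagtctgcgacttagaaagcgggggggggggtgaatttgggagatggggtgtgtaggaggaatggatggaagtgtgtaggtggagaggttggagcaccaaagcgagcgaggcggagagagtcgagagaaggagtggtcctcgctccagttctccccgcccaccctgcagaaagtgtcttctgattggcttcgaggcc
Camk2d: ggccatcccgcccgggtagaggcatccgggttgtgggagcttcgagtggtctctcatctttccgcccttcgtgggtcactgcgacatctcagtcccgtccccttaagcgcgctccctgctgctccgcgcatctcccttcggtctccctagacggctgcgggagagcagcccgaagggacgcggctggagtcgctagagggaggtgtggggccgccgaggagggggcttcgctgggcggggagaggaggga
Shank3: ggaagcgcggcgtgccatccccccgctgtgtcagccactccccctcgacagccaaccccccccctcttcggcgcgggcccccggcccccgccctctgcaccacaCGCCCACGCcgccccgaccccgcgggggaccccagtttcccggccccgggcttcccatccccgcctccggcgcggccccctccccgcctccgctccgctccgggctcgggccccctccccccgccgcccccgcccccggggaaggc

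The Nrgn stretch had a GC content of 58.4% and held 11 CpG dinucleotides, against 68.4% and 23 for Camk2d and 82.4% and 31 for Shank3. Promoters of 300 bases, from 250 before to 50 after the start, were found for 30 of the 37 members, 45 promoters in all, and were searched on both strands for 3 motifs, none of which contains another. The cyclic AMP response element TGACGTCA was in 0 of the 45, against 1.79% of the 32851 promoters of the table. The AP-1 motif TGANTCA was in 0 of the 45, against 7.808% of all. The EGR motif was in 1 of the 45, that of Shank3, against 0.612% of all.

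Libraries held 13552516 to 17906994 counts, with group medians from 15364068 to 16966620. The sum of 4 markers of cerebellum (Cbln3, Gabra6, Pcp2, Car8) was 22397 and 47862 normalized counts in dark mice 1 and 6, 22171 in psilocybin-dark mouse 12 and 13441 in light mouse 18, against 139 to 1142 in the other 20 mice, where Gabra6 was at 0 in some. None of the 4 was called after light or after psilocybin in the dark, and all 4 were lower after both. The sum of the 9 hippocampal markers tested was 3726 to 8801 in the dark group and 1439 to 2456 in the other 18 mice, without overlap, and 6, 4 and 7 of the 9 were lower than dark after light, psilocybin and both. The 10 cortical glutamatergic markers summed to 14984 to 36565 in the dark group and 32454 to 44967 in the others, and 7, 7 and 8 of them were higher. The activity-regulated genes Arc, Npas4, Egr1 and Fosb summed to 1691 to 5485 in the dark group and to 7551 to 28274 in the other groups. Oligodendrocyte markers summed to 112064 in dark mouse 1 and to 16963 to 23938 in dark mice 2 to 4. The other groups held 34002 to 78254, and none of these 5 markers was called against dark. Sums of the 6 striatal markers ran from 1919 to 3006 among dark mice. They were 3416 to 4019 after light and 3309 to 4350 after both, without overlap with dark. After psilocybin alone they were 2809 to 3665 and overlapped. In bulk tissue, fewer cells of a type and less RNA per cell cannot be told apart. The part of these marker differences in the results below was not tested, and the main counts of members called are also given without the 4 mice high in cerebellar markers, an alternative chosen after seeing the data.

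Scaled to exon length, the members covered a wide range of levels. Nrgn, which encodes neurogranin, a small protein that holds calmodulin near the membrane, and Camk2a, the main CaMKII subunit of the forebrain, led with 317.1 and 316.9 RPKM (counts per kb of exon, scaled to library size), averaged over the 24 mice. Their order differed between groups, since Nrgn was below Camk2a in the dark group and above it in the light group. Ppp1r9b, which encodes the spine protein spinophilin, followed at 216.1 on this scale, and Cnih2, an AMPA receptor partner, at 81.5. At the other end stood Dlgap2 at 5.17, Nlgn3 at 4.00 and Lrrtm4 at 3.79, and the plot of length-scaled levels shows all members in this order.

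**Figure D1:**
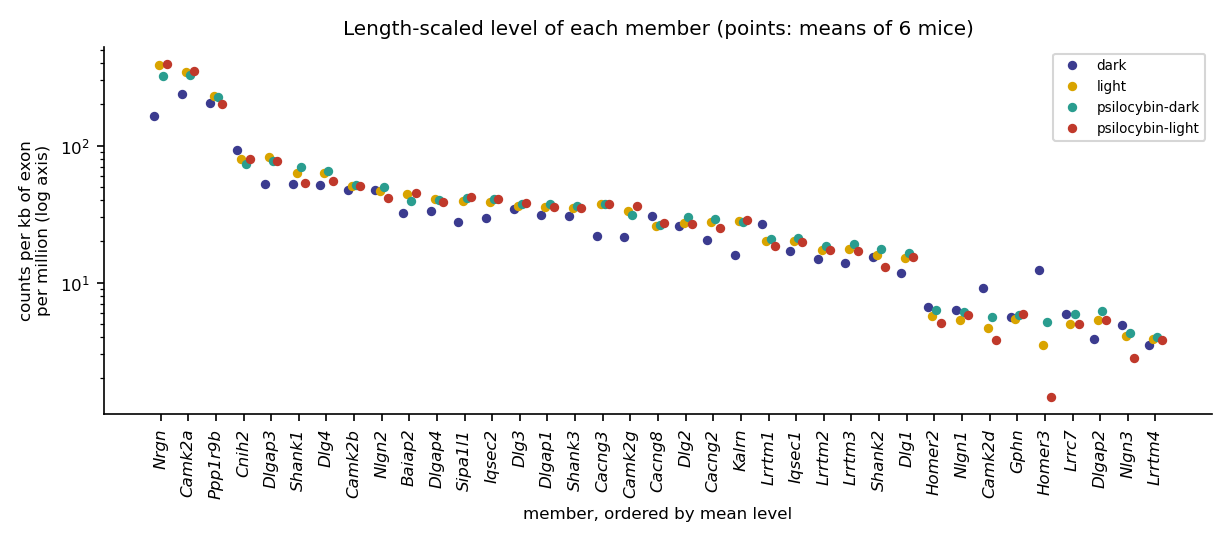
Length-scaled level of the 37 members, in counts per kb of exon scaled to library size on a log axis, with members ordered by their mean over 24 mice and points giving the mean of 6 mice in each group. Nrgn and Camk2a sit at the left with means of 317.1 and 316.9, Lrrtm4 at the right with 3.79, and the dark points lie apart from the other 3 for Nrgn, Camk2d and Homer3.

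Against the dark group, more members rose than fell in each of the 3 treated groups. By edgeR's quasi-likelihood test with Benjamini-Hochberg adjustment over 14464 genes and a threshold of 0.05, light changed 14 members, 12 higher and 2 lower, which is 37.8% of the members beside 31.9% of all genes tested (15.4% higher, 16.5% lower). Psilocybin in the dark changed 16, 15 higher and 1 lower, or 43.2% beside 24.7% of all genes (11.9% higher, 12.8% lower). Psilocybin with light changed 18, 12 higher and 6 lower, or 48.6% beside 38.4% of all genes (17.4% higher, 21% lower). With only the compared groups in the fit, light changed 8 members (21.6%) beside 21.4% of all genes, psilocybin in the dark 5 (13.5%) beside 13.8%, and both 12 (32.4%) beside 30.1%, so that the shares then lay near those of all genes. In the fit to all 24 mice, the median log2 fold change over the members was 0.20, 0.26 and 0.16 in these comparisons, beside -0.01, -0.02 and -0.02 over all genes. The 3 comparisons share the dark mice, so their lists are not independent of each other.

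A set of 10 members was higher in all 3 treated groups, namely Nrgn, Camk2g, Kalrn, Cacng3, Dlgap3, Dlg1, Lrrtm3, Iqsec1, Iqsec2 and Shank3, and Camk2d was lower in all 3. A further 12 members were called in 1 or 2 comparisons, and 14 in none. The groups themselves overlapped for most members. In light against dark the lowest light mouse was above the highest dark mouse only for Camk2g and Nrgn, 2 of 37 members, where 10% of all genes did not overlap (5.59% higher, 4.41% lower). No member was free of overlap between psilocybin-dark and dark, against 5.58% of all genes (3.13% higher, 2.45% lower). Between psilocybin-light and dark, 8 members were, against 15.8% of all genes (8.28% higher, 7.56% lower), with Camk2g, Nrgn, Kalrn, Cacng3, Dlgap3 and Sipa1l1 higher and Camk2d and Nlgn3 lower.

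The numbers of members higher and lower moved with the mice and terms in the fit. Dark mice 1 and 6 were both below dark mice 2 to 5 for 26 of the 37 members and above them for 3. Without them the members called were 10 higher and 8 lower after light, 14 and 7 after psilocybin in the dark, and 12 and 11 after both, beside 39.6%, 33.6% and 43.4% of all genes then called. Without mice 1, 6, 12 and 18 they were 14 and 9, 20 and 8, and 14 and 12, beside 43.1%, 38.3% and 48.2% of all genes then called. With the mean level of the cerebellar markers as a covariate, also added after seeing the data, they were 8 and 8, 14 and 3, and 7 and 11, beside 34.2%, 25.6% and 37.3% of all genes. With the mean of the hippocampal markers as a covariate, whose sums did not overlap between dark and the rest, 0, 0 and 1 members were called, beside 3.08%, 0% and 4.75% of all genes, and the log2 values of Dlg1, Dlg2, Dlgap4, Shank3, Lrrtm3 and Iqsec1 lay below 0 in at least 1 comparison where they had been called higher. Leaving out dark mice 1 and 6 did not remove this marker difference. Dark mice 2 to 5 held hippocampal sums of 4694 to 8801, beside 1439 to 2456 in the other groups.

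**Figure D2:**
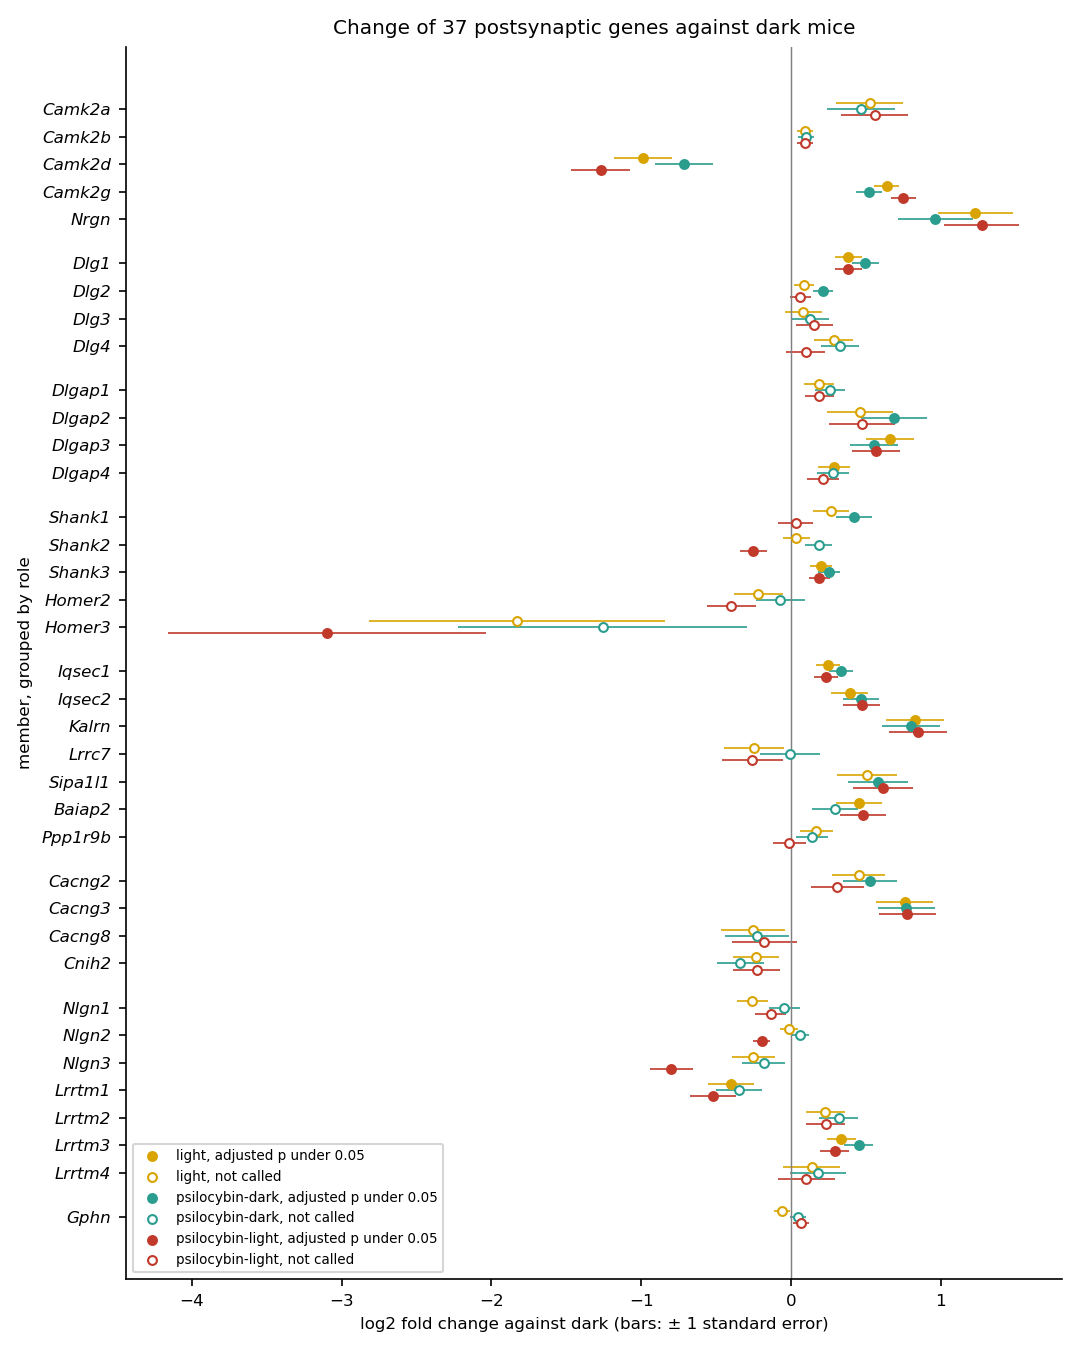
Log2 fold change of the 37 members against the dark group, with bars of 1 standard error, filled where the adjusted p-value was under 0.05 and open otherwise; members are grouped by role and the 3 colours are the light, psilocybin-dark and psilocybin-light groups. Nrgn lies farthest to the right at 1.23, 0.96 and 1.27, Camk2d to the left at -0.99, -0.71 and -1.27, and Homer3 has the longest bars.

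Among CaMKII and neurogranin, the members moved in opposite directions. Nrgn (chr9:37452275-37464689 in GRCm39, minus strand) rose most of all members. Its normalized counts, scaled to a library of mean size, were 6261, 15972 and 22488 as the lowest, median and highest of the dark group and 22608, 37421 and 41281 in the light group. They were 16802, 30643 and 36373 in the psilocybin-dark group and 32404, 35369 and 39331 in the psilocybin-light group. Every light and psilocybin-light mouse was above every dark mouse, while psilocybin-dark mouse 12 fell within the dark range. The fold change of Nrgn was 2.35 after light (log2 1.23 ± 0.25 SE, adjusted p = 0.000754), 1.95 after psilocybin in the dark (0.96 ± 0.25, adjusted p = 0.00696) and 2.42 after both (1.27 ± 0.25, adjusted p = 0.000394). Without dark mice 1 and 6, which held 7473 and 6261 counts, the log2 values were 0.89, 0.62 and 0.94, and the call held. Exons of the opposite-strand gene Vsig2 cover 21.7% of the Nrgn exon bases, and Vsig2 was counted 2339 times in all libraries together beside 682127 for Nrgn.

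The γ subunit gene Camk2g (chr14:20784942-20844541, minus strand) rose in all 3 comparisons. Its normalized counts were 2600, 3327 and 3875 in the dark group, 4238, 5144 and 5510 in the light group, 3693, 4789 and 5025 in the psilocybin-dark group and 5171, 5337 and 5896 in the psilocybin-light group. Light and psilocybin-light mice were all above the dark mice, and of the psilocybin-dark mice mouse 12 alone was within the dark range. The log2 fold changes were 0.64 ± 0.09 (adjusted p = 1.07e-05), 0.52 ± 0.09 (adjusted p = 0.000156) and 0.75 ± 0.09 (adjusted p = 1.08e-06) after light, psilocybin and both. Without dark mice 1 and 6 they were 0.67, 0.55 and 0.79.

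The δ subunit gene Camk2d (chr3:126389945-126639982, plus strand) went the other way. Its normalized counts were 2688, 4184 and 4673 in the dark group, 1598, 1893 and 2821 in the light group, 1483, 2126 and 3548 in the psilocybin-dark group and 1418, 1663 and 1814 in the psilocybin-light group. All psilocybin-light mice were below all dark mice, and in the light group mouse 18 reached into the dark range. Camk2d fell by 0.99, 0.71 and 1.27 on the log2 scale (SE 0.19 in each, adjusted p = 0.000483, 0.00879 and 2.85e-05). The fall was as large without mice 1, 6, 12 and 18, at -1.18, -0.93 and -1.33. With the hippocampal covariate the values were -0.88, -0.60 and -1.14, with adjusted p-values of 0.126, 0.59 and 0.0524. With only the compared groups in the fit, Camk2d was not called after psilocybin in the dark.

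The 2 most abundant CaMKII subunits did not pass the test. Camk2a had log2 values of 0.52, 0.47 and 0.56 (adjusted p = 0.0793, 0.136 and 0.0536), and its counts in dark mice 1 and 6 were 16531 and 15678 beside 41554 to 57473 in dark mice 2 to 5. Camk2b, whose exons share 12.6% of their bases with the opposite-strand gene Ykt6, stayed between 0.09 and 0.10.

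**Figure D3:**
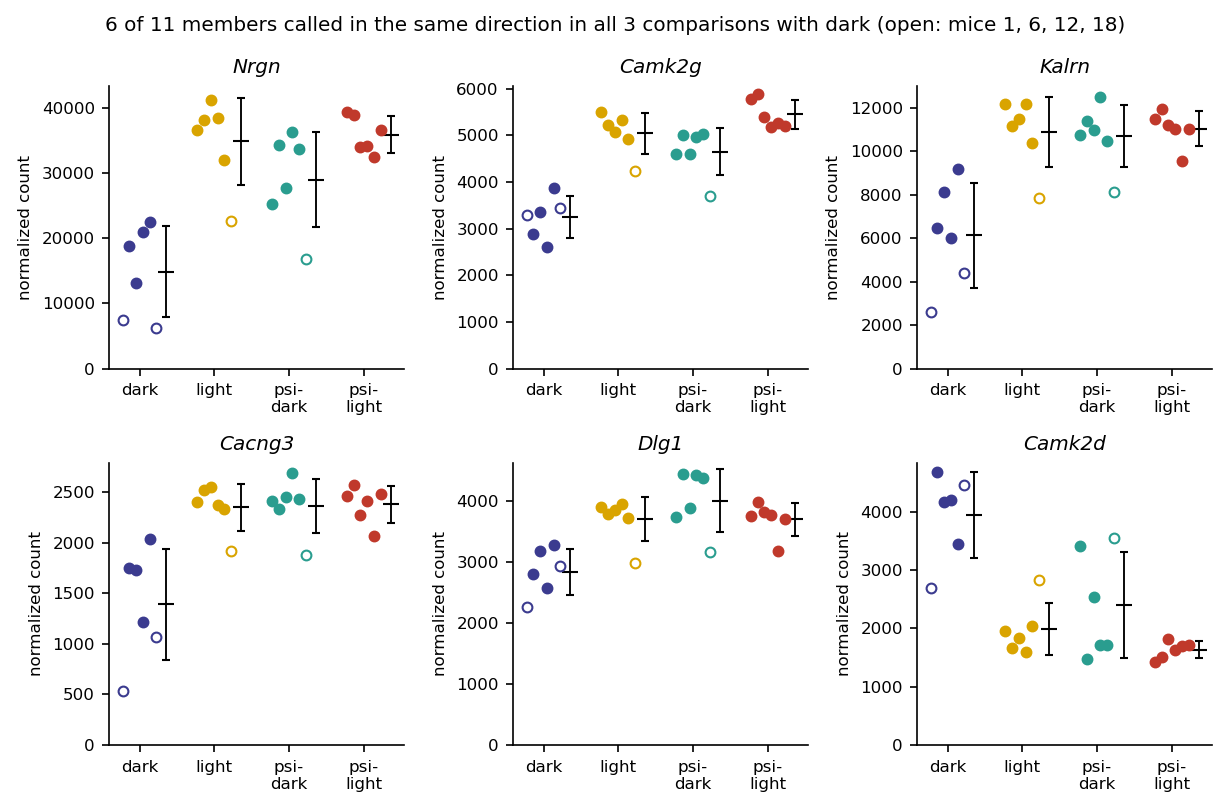
Normalized counts of 6 members in each mouse, with the mean and SD of 6 mice at the right of each group and open circles for mice 1, 6, 12 and 18; psi stands for psilocybin. The dark group is lowest for Nrgn, Camk2g, Kalrn, Cacng3 and Dlg1 and highest for Camk2d, and mouse 12 is the lowest psilocybin-dark mouse and mouse 18 the lowest light mouse for the first 5.

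In the PSD-95 family, Dlg1, which encodes SAP97, a scaffold that also accompanies AMPA receptors on their way to the membrane, was the member called in all 3 comparisons. Its normalized counts were 2262, 2876 and 3274 in the dark group, 2983, 3827 and 3957 in the light group, 3164, 4135 and 4454 in the psilocybin-dark group and 3191, 3765 and 3982 in the psilocybin-light group. The groups overlapped in each comparison through mouse 18, 12 or 23, the lowest of its group. The log2 fold changes of Dlg1 were 0.38 ± 0.09 (adjusted p = 0.00296), 0.50 ± 0.09 (adjusted p = 0.000484) and 0.38 ± 0.09 (adjusted p = 0.00224). Dlg2, which encodes PSD-93, was called only after psilocybin in the dark (0.21 ± 0.07, adjusted p = 0.0242), and not without psilocybin-dark mouse 8 (0.20) or 10 (0.20). Dlg4, the gene of PSD-95 itself, had 0.28, 0.33 and 0.10 (adjusted p = 0.0974, 0.0671 and 0.588), and Dlg3 had 0.08, 0.13 and 0.16.

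All 4 SAPAP genes had positive log2 values in each comparison with dark, and Dlgap3, which encodes SAPAP3, was called in all. Dlgap3 counts were 3543, 7386 and 8758 in the dark group, 8492, 10565 and 11550 in the light group, 7287, 9882 and 11077 in the psilocybin-dark group and 8999, 9701 and 10599 in the psilocybin-light group. All psilocybin-light mice were above all dark mice. Its log2 fold changes were 0.66 ± 0.16 (adjusted p = 0.00312), 0.55 ± 0.16 (adjusted p = 0.0142) and 0.57 ± 0.16 (adjusted p = 0.00766), and without dark mice 1 and 6 they were 0.40, 0.29 and 0.31, still called. Dlgap2 was called after psilocybin in the dark alone (0.68 ± 0.22, adjusted p = 0.0261), with counts of 283, 831 and 1060 in the dark and 809, 1221 and 1448 in the psilocybin-dark group. Dark mice 1 and 6 held 283 and 423 of these, and without them the value was 0.35 (adjusted p = 0.041), while without psilocybin-dark mouse 10 it was 0.62 (adjusted p = 0.0644). Dlgap4 was called after light alone, at 0.29 ± 0.11 (adjusted p = 0.0412), a call that ended without dark mouse 6 or any of light mice 13 to 17 and whose value fell to 0.18 without dark mouse 1. Dlgap1 had 0.19, 0.26 and 0.19 and was not called.

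Among Shank and Homer genes the directions differed. Shank3, the scaffold whose promoter is given above, was higher in all 3 comparisons by little, at 0.20 ± 0.07 (adjusted p = 0.04), 0.25 ± 0.07 (adjusted p = 0.0137) and 0.19 ± 0.07 (adjusted p = 0.0428). Both the light and the psilocybin-light calls of Shank3 ended without dark mouse 1 (0.14 in both) or 4 (0.17 and 0.16) and without some of the treated mice. Shank1 was called only after psilocybin in the dark (0.42 ± 0.12, adjusted p = 0.0124), and Shank2 only after both, where it was lower (-0.25 ± 0.09, adjusted p = 0.0321). That Shank2 call ended without any of dark mice 3, 5 and 6 or psilocybin-light mice 19, 21, 23 and 24, with values from -0.21 to -0.25.

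Homer3, which encodes a Homer protein that links receptors to calcium stores, is abundant in cerebellar Purkinje cells. Its normalized counts were 128, 185 and 3379 in the dark group, 73.6, 88.8 and 1243 in the light group, 75.9, 95.5 and 1968 in the psilocybin-dark group and 87.1, 96.0 and 217 in the psilocybin-light group. The 4 high values were those of mice 1 (1981), 6 (3379), 12 (1968) and 18 (1243), the same mice that were high in cerebellar markers, and the other 20 mice lay between 73.6 and 217. Homer3 was called after both treatments, 8.56-fold lower (log2 -3.10 ± 1.06, adjusted p = 0.0242). Without dark mouse 6 the log2 value was -2.17 (adjusted p = 0.0941), and without dark mice 1 and 6 it was -0.45 (adjusted p = 0.743), while with the cerebellar covariate it was 0.37. Exons of Ddx49 on the opposite strand cover 22.9% of those of Homer3, with 7512 counts for Ddx49 beside 11430 for Homer3. Homer2 was not called, with -0.22, -0.07 and -0.40, but its counts in dark mice 1 and 6 were 755 and 1006 beside 1549 to 2104 in dark mice 2 to 5, and without these 2 mice it was lower in all 3 comparisons (-0.48, -0.33 and -0.65, adjusted p = 0.000425, 0.00974 and 1.18e-05).

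**Figure D4:**
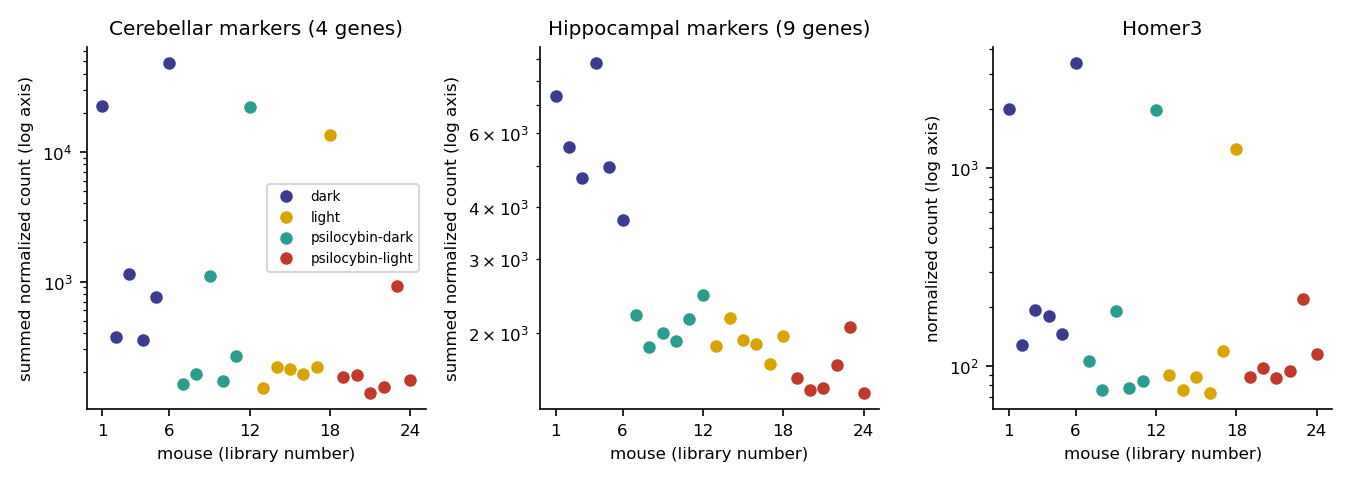
Summed normalized counts of 4 cerebellar markers and of 9 hippocampal markers, and normalized counts of Homer3, for each of the 24 mice on log axes, with colours for the 4 groups. Mice 1, 6, 12 and 18 stand apart both in cerebellar markers (13441 to 47862 against 139 to 1142) and in Homer3 (1243 to 3379 against 73.6 to 217), and the dark mice have the highest hippocampal sums.

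Of the 7 regulators of small GTPases and spine actin, 4, 4 and 5 rose in the 3 comparisons, where 15.4%, 11.9% and 17.4% of all genes did, and none fell. Kalrn, which encodes kalirin, an exchange factor that activates Rac in spines (chr16:33789443-34393902, minus strand), had 2581, 6246 and 9184 normalized counts in the dark group and 7870, 11344 and 12203 in the light group. It had 8142, 10867 and 12507 in the psilocybin-dark and 9538, 11132 and 11957 in the psilocybin-light group. The treated mice were above the dark mice except that light mouse 18 and psilocybin-dark mouse 12 reached into the dark range. The fold change of Kalrn was 1.77 (log2 0.83 ± 0.19, adjusted p = 0.00242), 1.74 (0.80 ± 0.19, adjusted p = 0.00421) and 1.80 (0.85 ± 0.19, adjusted p = 0.00149). Without dark mice 1 and 6 the log2 values were 0.55, 0.53 and 0.58, and the calls held.

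The other members of this role moved less. Iqsec1 and Iqsec2, exchange factors for Arf6, rose by 0.23 to 0.34 and by 0.39 to 0.47 on the log2 scale, with adjusted p-values of 0.00369 to 0.0249. Leaving out dark mouse 2 or 4 ended the Iqsec1 calls after light (0.21 and 0.20) and after both (0.19 and 0.18). Sipa1l1, a regulator of Rap, had counts of 2974, 6981 and 8283 in the dark, 6765, 8798 and 10064 in the light, 5737, 9510 and 11567 in the psilocybin-dark and 8308, 9612 and 10022 in the psilocybin-light group. It was called after psilocybin in the dark (0.58 ± 0.20, adjusted p = 0.0378) and after both (0.61 ± 0.20, adjusted p = 0.0192), with every psilocybin-light mouse above every dark mouse. Dark mice 1 and 6 held 3383 and 2974 counts of Sipa1l1, and without them its values were 0.27 (adjusted p = 0.105) and 0.31 (adjusted p = 0.0547). The first of these calls also ended without dark mouse 1 (0.46), dark mouse 6 (0.44) or any of psilocybin-dark mice 8 to 11 (0.50 to 0.57).

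Baiap2, which encodes the actin regulator IRSp53, was called after light (0.45 ± 0.16, adjusted p = 0.0296) and after both (0.48 ± 0.16, adjusted p = 0.0183). The first call ended without dark mouse 6 (0.38) or light mouse 15, 16 or 17 (0.43 to 0.44). Ppp1r9b had 0.17, 0.14 and -0.01, and Lrrc7, which encodes densin-180, had -0.25, -0.01 and -0.26. Like Homer2, Lrrc7 had low counts in dark mice 1 and 6, at 598 and 578 beside 1461 to 1639 in dark mice 2 to 5, and was lower in all 3 comparisons without them (-0.57, -0.33 and -0.58, adjusted p = 0.000113, 0.0126 and 7.71e-05).

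Among the partners of AMPA receptors, the transmembrane proteins that traffic and tune these channels, Cacng3 (chr7:122269715-122368619, plus strand), which encodes TARP γ-3, was higher in all 3 comparisons. Its normalized counts were 538, 1471 and 2035 in the dark group, 1915, 2385 and 2552 in the light group, 1877, 2424 and 2684 in the psilocybin-dark group and 2066, 2436 and 2573 in the psilocybin-light group. Only light mouse 18 and psilocybin-dark mouse 12 lay within the dark range. The log2 fold changes were 0.76, 0.77 and 0.78 (SE 0.19 in each, adjusted p = 0.00418, 0.00512 and 0.0027), and without dark mice 1 and 6 they were 0.49, 0.50 and 0.51, still called.

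Cacng2, which encodes stargazin, was called after psilocybin in the dark alone (0.53 ± 0.18, adjusted p = 0.0339). That call ended without dark mouse 2, 3 or 4 or psilocybin-dark mouse 8, 10, 11 or 12, with values from 0.42 to 0.52. Unlike Cacng3, Cacng2 was high in the dark mice high in cerebellar markers, with 2216 and 3366 counts in dark mice 1 and 6 beside 1178 to 1829 in dark mice 2 to 5. Without these 2 mice it was also higher after light (0.87, adjusted p = 3.36e-06) and after both (0.73, adjusted p = 1.9e-05). Cacng8 (TARP γ-8) and Cnih2 were not called, with -0.25, -0.23 and -0.18 for the former and -0.23, -0.34 and -0.23 for the latter. Without dark mice 1 and 6, Cacng8 was lower in all 3 (-0.58, -0.55 and -0.50, adjusted p = 9.68e-05, 0.000206 and 0.000344), and so was Cnih2 (-0.50, -0.60 and -0.49, adjusted p = 2.93e-05, 5.95e-06 and 2.51e-05). The hippocampal marker sums of dark mice 2 to 5 still lay above those of all mice in the other groups. The part of this marker difference in these falls was not tested.

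Adhesion genes moved in both directions. Lrrtm3, which encodes a postsynaptic partner of neurexin, rose in all 3 comparisons (0.33, 0.45 and 0.29, SE 0.10 in each, adjusted p = 0.0111, 0.00166 and 0.0205), though the last call ended without dark mouse 4 (0.24, adjusted p = 0.055). Lrrtm1, of the same family, had counts of 980, 1901 and 2431 in the dark group and 1179, 1336 and 1434 in the light group. It had 1237, 1322 and 1530 in the psilocybin-dark and 1127, 1178 and 1319 in the psilocybin-light group. The dark range enclosed the other 3. Lrrtm1 was lower after light (-0.40 ± 0.15, adjusted p = 0.0488) and after both (-0.52 ± 0.15, adjusted p = 0.0101). When single mice were left out, the first call held without dark mouse 1 or 6 and ended in the other 22 fits, with values from -0.52 to -0.28. Dark mice 1 and 6 held the 2 lowest dark values, 1073 and 980, and without both Lrrtm1 was lower in all 3 comparisons (-0.66, -0.61 and -0.78, adjusted p = 1.2e-06, 5.38e-06 and 1.45e-07).

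Nlgn3 and Nlgn2, which encode neuroligins, were lower after psilocybin with light. Nlgn3 (chrX:100342750-100369570, plus strand) had 560, 741 and 926 normalized counts in the dark group, 386, 670 and 773 in the light group, 610, 624 and 692 in the psilocybin-dark group and 395, 418 and 443 in the psilocybin-light group. Every psilocybin-light mouse was below every dark and every psilocybin-dark mouse. Nlgn3 was 1.74-fold lower than in the dark group (log2 -0.80 ± 0.15, adjusted p = 0.000176), and its log2 values after light and after psilocybin in the dark were -0.25 and -0.18 (adjusted p = 0.189 and 0.384). Exons of Gm21986 on the same strand cover 41.1% of those of Nlgn3, and reads there can be lost or split by the counting. Gm21986 was counted 79 times in all beside 14390 for Nlgn3. Nlgn2, the neuroligin of inhibitory synapses, was lower by less (-0.20 ± 0.06, adjusted p = 0.0101), and Nlgn1 was not called (-0.26, -0.04 and -0.14) but was lower in all 3 comparisons without dark mice 1 and 6 (-0.42, -0.21 and -0.30, adjusted p = 7.15e-05, 0.0241 and 0.00158). Lrrtm2 and Lrrtm4 had values between 0.10 and 0.32 and were not called. Gphn, which encodes gephyrin, the scaffold of inhibitory synapses, had -0.06, 0.04 and 0.07 with an SE of 0.05 and was not called either. Without dark mice 1 and 6 Gphn was higher after psilocybin in the dark (0.14, adjusted p = 0.00839) and after both (0.17, adjusted p = 0.00178).

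Between the treated groups few members differed. Psilocybin with light against psilocybin in the dark gave 3 members lower and 0 higher, 8.11% of the members beside 6.38% of all genes (2.6% higher, 3.78% lower). Nlgn3 was 1.53-fold lower (log2 -0.62 ± 0.15, adjusted p = 0.0124). Shank2, a scaffold of the postsynaptic density, had 4036, 4308 and 4828 counts in the psilocybin-dark and 2925, 3238 and 3460 in the psilocybin-light group, 1.35-fold lower (-0.44 ± 0.09, adjusted p = 0.0054). Nlgn2 had 4702, 4935 and 4972 against 3877, 4039 and 4379, 1.20-fold lower (-0.26 ± 0.06, adjusted p = 0.00904). In all 3 the highest psilocybin-light mouse was below the lowest psilocybin-dark mouse, as in 3.8% of all genes, where 6.42% did not overlap in either direction. The 3 calls held when any 1 mouse was left out and with either marker covariate. Camk2g did not overlap either, being higher with light as were 2.61% of all genes, but was not called (0.23 ± 0.09, adjusted p = 0.116). Shank1 had -0.39 ± 0.12 (adjusted p = 0.0508). Without mice 1, 6, 12 and 18, 10 members were lower and 0 higher, beside 17.2% of all genes, with Shank1, Dlg4, Dlg2, Dlgap2, Homer2, Lrrc7 and Ppp1r9b added.

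Psilocybin with light against light alone gave 0 members by edgeR, beside 0.608% of all genes. DESeq2 called 1 member, Nlgn3 (-0.54, adjusted p = 0.0323), beside 1.32% of all genes. By edgeR 18 members had log2 values above 0 and 19 below, beside 6914 and 7548 of all genes. Among those below 0, and not called, were Nlgn3 (-0.55 ± 0.15, adjusted p = 0.0919), Shank2 (-0.29 ± 0.09, adjusted p = 0.194) and Nlgn2 (-0.18 ± 0.06, adjusted p = 0.194). Within the light group Nlgn3 was split, with 386 and 409 counts in mice 17 and 18 and 662 to 773 in mice 13 to 16, beside 395 to 443 in the psilocybin-light mice. The 8 mice numbered 17 to 24 were below all of mice 1 to 16 for Nlgn3, as they were for 110 of the genes tested, with 5 above. They were below light mice 13 to 16 for 7 members (Cacng2, Dlg4, Nlgn2, Nlgn3, Ppp1r9b, Shank1 and Shank2) and above them for 0, and over all 14464 genes they were below for 459 and above for 76. Without light mouse 17 Nlgn3 was called (-0.64, adjusted p = 0.016), as it was without mouse 18 (-0.64, adjusted p = 0.0274), and without both it was -0.77 (adjusted p = 0.000157), with Nlgn2 called as well (-0.26, adjusted p = 0.00979). Without mice 1, 6, 12 and 18, 6 members were lower, these 2 with Shank2, Shank1, Dlg4 and Ppp1r9b, beside 2.34% of all genes.

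**Figure D5:**
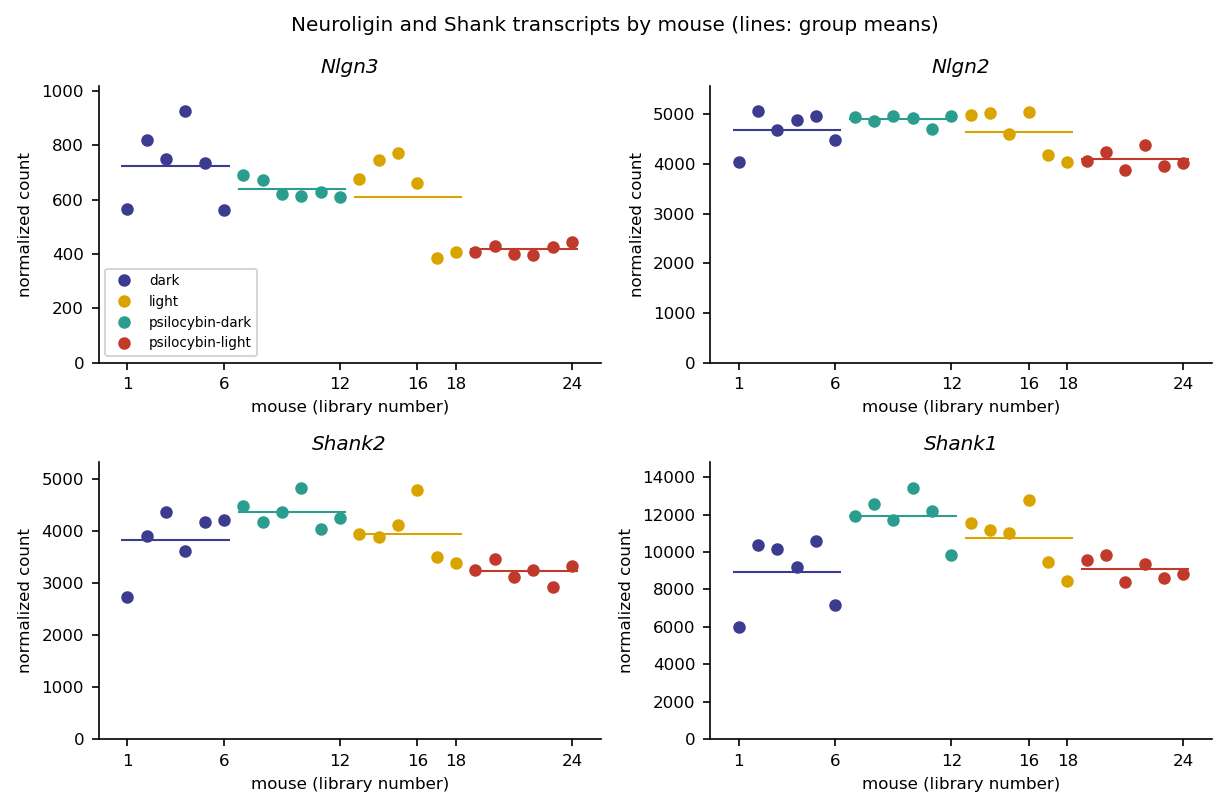
Normalized counts of Nlgn3, Nlgn2, Shank2 and Shank1 in the 24 mice by library number, coloured by group, with lines at the group means. For Nlgn3 the light mice 17 (386) and 18 (409) lie with the psilocybin-light mice (395 to 443) and apart from light mice 13 to 16 (662 to 773).

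Psilocybin in the dark against light gave 0 members by edgeR and 0 by DESeq2. Beside these, 0.456% of all genes were called by edgeR and 2.8% by DESeq2. The log2 values of the members lay between -0.27 and 0.57, and the lowest adjusted p was 0.353. Homer3 had the value of 0.57. Without mice 1, 6, 12 and 18, Nlgn1 (0.20, adjusted p = 0.0498) and Lrrc7 (0.28, adjusted p = 0.042) were higher after psilocybin in the dark. These were 5.41% of the members, beside 6.03% of all genes then called.

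The interaction asks whether light and psilocybin together gave the sum of the changes each gave alone. It was called for 5 members, 13.5% beside 8.75% of all genes (3.89% positive, 4.86% negative), and was negative in each, so that the joint change lay below the sum. Shank1 is an example. Its counts were 5965, 9689 and 10599 in the dark, 8450, 11079 and 12792 in the light, 9816, 12052 and 13439 in the psilocybin-dark and 8371, 9086 and 9856 in the psilocybin-light group, whose range lay within that of the dark group. The log2 changes of Shank1 against dark were 0.27, 0.42 and 0.03 after light, psilocybin and both, with an interaction of -0.66 ± 0.17 (adjusted p = 0.0186). Light mice 17 and 18 held 9471 and 8450 counts of Shank1, within the psilocybin-light range, beside 11004 to 12792 in mice 13 to 16. A shift with library number that runs through mice 17 to 24 cannot be told apart from the psilocybin-light group here.

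For the other 4 the interaction was -0.50 ± 0.13 for Dlg1 (adjusted p = 0.0213), -0.49 ± 0.14 for Lrrtm3 (adjusted p = 0.0273), -0.47 ± 0.13 for Shank2 (adjusted p = 0.0249) and -0.41 ± 0.12 for Camk2g (adjusted p = 0.0375). Lrrtm3 had 847, 1090 and 1254 counts in the dark, 1094, 1368 and 1443 in the light, 1213, 1504 and 1675 in the psilocybin-dark and 1112, 1317 and 1392 in the psilocybin-light group. Dlg1, Camk2g and Lrrtm3 were thus above dark with both treatments, while Shank1 lay near dark and Shank2 below it. Shank2, like Shank1, was lower in each of mice 17 to 24 than in light mice 13 to 16, and Dlg1, Camk2g and Lrrtm3 were not. All 5 calls held without light mice 17 and 18. The Camk2g call ended in 13 of the 24 fits without 1 mouse, with values from -0.47 to -0.35, and that of Lrrtm3 without psilocybin-dark mouse 8 (-0.47), 10 (-0.45) or 11 (-0.47) or psilocybin-light mouse 23 (-0.45). The number of members called ranged from 3 to 11 over these fits, being 11 without dark mouse 5 (beside 10.6% of all genes), 10 without psilocybin-dark mouse 12 (11.5%), 9 without light mouse 18 (10%) and 3 without psilocybin-dark mouse 8, 10 or 11 or psilocybin-light mouse 23 (5.77% to 6.33%). Without mice 1, 6, 12 and 18 it was 24, 19 negative and 5 positive, beside 27% of all genes, and with the hippocampal covariate it was 0, as it was for all genes.

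Other postsynaptic genes moved in both directions. Of 89 further genes listed, which include neurexin partners, glutamate receptor regulators and Homer1, 88 were tested, and light changed 33 of them, 13 higher and 20 lower, or 37.5% beside 31.9% of all genes. Psilocybin in the dark changed 25 (16 higher, 9 lower), or 28.4% beside 24.7%, and both changed 37 (15 higher, 22 lower), or 42% beside 38.4%, so that these shares lay near those of all genes. Homer1, whose short form is induced by synaptic activity, rose most after light, with 1569, 3863 and 6185 counts in the dark and 5697, 10316 and 10710 in the light group (log2 1.34 ± 0.26, adjusted p = 0.000439). Lzts3 (0.88), Grip2 (0.70) and Adgrb1 (0.54) followed. Shisa6, an AMPA receptor partner, was lowest with -2.08 ± 0.44 (adjusted p = 0.00103), followed by Cacng5 (-1.37), Tanc1 (-1.16) and Mdga1 (-1.14). The Cacng5 call ended without dark mouse 1 (-1.21) or 6 (-0.86) or any of light mice 13 to 17 (-1.35 to -1.26). Between psilocybin-light and psilocybin-dark, 5 of these genes were lower and 0 higher, or 5.68% beside 6.38% of all genes, namely Adgrl3, Lin7c, Nrxn3, Arhgef7 and Il1rapl1.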

How the data were processed

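The authors trimmed reads with cutadapt, discarded those under 30 bases, mapped the rest with STAR to GRCm39 (mm10 in the submitters' processing notes) and ran htseq-count. The authors deposited the resulting raw counts, which carry Ensembl gene identifiers. The strand setting and annotation release are not given in the sources used here. The members and lists were chosen with earlier results of these data known.

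The main analysis used edgeR 4.0.16 under R 4.3.3. A gene was kept if any library held 30 or more of its counts, libraries scaled by TMM, and a quasi-likelihood model with 1 term per group fitted to all 24 mice. Tests were two-sided, adjusted by Benjamini and Hochberg over 14464 genes, with a threshold of 0.05. The common coefficient of variation between mice was 0.182. No 2 mice of a group differed by less than sampling noise. On data simulated with the same spread for every gene and no mice standing apart, most known log2 changes of 1 in size were called. Most changes of the members were smaller. Smaller changes were simulated too, and their recovery is not given here. Values are given for up to 5 members per direction with the largest changes against dark and for members called elsewhere, and for up to 4 other postsynaptic genes per direction. Positions and exon lengths are from GENCODE vM39 (GRCm39). Alternatives included DESeq2 1.42.0, other filters and scalings, covariates and libraries left out. Figures were drawn with matplotlib 3.10.9.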

Additional observations from a re-analysis of the deposited data

Results flagged for a closer look

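In groups of 6, 18 of 148 combinations of member and group had a mouse beyond the 95% limit of Dixon's test. The test takes the gap to the nearest neighbour as a share of the group's range. Chance gives about 1 in 20 for a single combination. The members were measured in the same mice, so the combinations are not independent and their number was not tested against that rate. Light mouse 18 was apart for 7 of the 18. It was lowest for Dlg1 (2983 normalized counts), Lrrtm2 (1212), Lrrtm4 (279), Cacng3 (1915) and Cacng8 (908), and highest for Homer3 (1243) and Camk2d (2821). Psilocybin-dark mouse 12 was also apart for 7, lowest for Dlg3 (3242), Dlgap3 (7287), Camk2a (35850), Camk2g (3693), Cacng8 (979) and Cnih2 (2285) and highest for Homer3 (1968). Both mice are high in cerebellar markers, whose part in these values was not tested. Psilocybin-light mouse 23 was lowest for Dlg1 (3191) and Dlg3 (3321) and highest for Homer3 (217), and light mouse 16 was highest for Dlg2 (8691).

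The change with psilocybin differed between light and dark, by the interaction term, for Shank1 (-0.66 on the log2 scale), Dlg1 (-0.50), Lrrtm3 (-0.49), Shank2 (-0.47) and Camk2g (-0.41).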

How the results depend on the processing

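The counts of members called are given in the order light, psilocybin-dark and psilocybin-light against dark. For the values that changed below, the cause was not tested except where stated. With DESeq2's size factors or filterByExpr every count stayed within 1.5 times its value and all 64 calls of single genes held. All 64 calls held with DESeq2 as well. DESeq2 called 1 member (0 before) in psilocybin-light against light and 9 in the interaction, beside 1.32% and 11.5% of all genes. Without a filter the interaction gave 3, beside 2.39% of all genes, and 12 of the 64 calls were lost. With only the compared groups in the fit the counts were 8 and 5 for the first 2 (beside 21.4% and 13.8% of all genes) and 7 for psilocybin-light against psilocybin-dark (12.1%), and 24 of 59 calls of single genes were lost. With a log2 change of 1 or more in size also required in the main fit, only Nrgn remained after light. No member remained after psilocybin in the dark, and Nrgn, Camk2d and Homer3 remained after both. None remained for psilocybin-light against psilocybin-dark or the interaction. No share of all genes is given for this limit. Without dark mice 1 and 6, psilocybin-light gave 2 against light and 6 against psilocybin-dark, and the interaction 14. The shares of all genes were then 1.33%, 12.5% and 21.6%.

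With the hippocampal covariate the counts were 0, 0 and 1, then 1 for psilocybin-light against light and 0 for the interaction. In the same order 3.08%, 0%, 4.75%, 0.691% and 0% of all genes were called. The sign then turned after light for Dlg1 (-0.0065), Dlgap4 (-0.0226), Shank3 (-0.11) and Lrrtm3 (-0.12), after psilocybin in the dark for Dlg2 (-0.0044) and Shank3 (-0.0534), and after both for Dlg1 (-0.0404), Shank3 (-0.15), Lrrtm3 (-0.20) and Iqsec1 (-0.0266). The covariate is confounded with the dark group, so the 2 cannot be told apart.

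The following were chosen after seeing the data. Without mice 1, 6, 12 and 18 the counts were 23 and 28 for the first 2, then 6 for psilocybin-light against light, 10 against psilocybin-dark, 2 for psilocybin-dark against light and 24 for the interaction. In the same order 43.1%, 38.3%, 2.34%, 17.2%, 6.03% and 27% of all genes were called. Without light mice 17 and 18, psilocybin-light against light gave 2 and the interaction 9, beside 1.57% and 10.3% of all genes. With the cerebellar covariate psilocybin-light gave 1 against light and 7 against psilocybin-dark, psilocybin-dark against light gave 1, and the interaction 10. In the same order 1.11%, 11.1%, 4.37% and 12.1% of all genes were called. Homer3 after both treatments turned to 0.37 with this covariate.

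Leaving out each mouse in turn gave 10 to 16 members for light, 12 to 20 for psilocybin-dark and 15 to 20 for psilocybin-light against dark, 0 to 1 for psilocybin-light against light, 3 to 4 against psilocybin-dark, 0 throughout for psilocybin-dark against light and 3 to 11 for the interaction. For the comparisons with dark the shares of all genes were 27.2% to 34.8%, 19% to 29.2% and 33.9% to 40.1%. No paired analysis was possible because the mice are numbered 1 to 24 and the groups share no number. Homer3 held 73.6 to 217 counts in 20 of the 24 mice.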
